A study of Mus musculus with 11 samples.

Results

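Smooth muscle contractile genes are the set of 10 genes described here: Actg2, Myh11, Cnn1, Tagln, Acta2, Des, Synm, Kcnmb1, Smtn and Myocd. They were chosen by name, without a threshold on any measured value, out of 18193 genes with a named probe set on the array. Earlier results of these data were known when the genes were chosen. All 10 were measured, by 17 probe sets in all, and the brightest one by mean log2 value stands for its gene. One array, homozygous replicate 4, carried far more signal for all 10 genes than any other array of its set, and the direction of the genotype difference turned on that array for 7 of them.

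Smooth muscle cells contract when myosin filaments pull on actin filaments that are anchored to intermediate filaments and to dense bodies. In the urinary tract they form the wall of the renal pelvis and ureter, where they drive peristalsis, and the wall of arteries and arterioles. Their contractile genes are switched on together by serum response factor, which binds the CArG box, and by its coactivator myocardin. Acta2 and Tagln mark smooth muscle of vessels and of hollow organs alike, and Actg2 encodes the actin isoform that prevails in visceral smooth muscle.

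Transcripts of mouse kidney at embryonic day 17 were measured on Affymetrix 3' arrays, 1 array a sample, in 4 Robo2 homozygous, 3 NB-titled Robo2 homozygous and 4 wild-type samples. Robo2 is a receptor of Slit guidance proteins, and its signal limits where the ureteric bud, the source of the ureter and pelvis lining, grows out. The sources used here do not give the allele, its effect on the protein, the strain, the sex, the number of animals per sample or the meaning of NB. Nothing in the labels says that replicates came from separate animals, so a p-value here speaks only to the spread among these arrays, some or all of which may be technical. A bulk sample cannot tell more smooth muscle cells from more RNA per cell.

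By their intensity distributions the arrays fell into 2 sets, which are treated here as normalized apart, although no label states it: a set of 5 with homozygous replicate 1, the NB-titled replicates 3 to 5 and wild-type replicate 1, and a set of 6 with replicates 2 to 4 of both genotypes. The median intensity of an array was 47.1 to 53.4 among the set of 5 and 23.4 to 24.6 among the other 6. Values below are therefore given mostly as relative levels, meaning log2 intensity minus the median log2 intensity of the 18193 genes on the same array. Robo2 was dim, with relative levels of -4.15, -4.25, -3.93 and -3.91 in homozygous replicates 1 to 4, -4.20, -3.63 and -3.52 in the NB-titled arrays and -3.44, -3.15, -2.67 and -3.14 in wild-type replicates 1 to 4. The 4 homozygous arrays lay below the 4 wild-type arrays, and 2 of the 3 NB-titled arrays lay between them. Free-text labels spoke of human brain. The kidney transcription factor gene Pax8 stood at percentiles 68.6 to 87.9 over the 11 arrays. Of 10 brain genes, Neurod6 stayed at percentile 0.781 or lower and Gfap, Slc17a7, Gad1 and Slc1a2 at 31.9 or lower. Syt1 and Mbp lay between 32.7 and 69.8, and the neuronal genes Snap25, Stmn2 and Rbfox3 reached 51.7, 81.3 and 96.0, all on homozygous replicate 4. The summed intensity of the brain list was 1944 on that array, against 364 to 799 on the 5 other arrays of its set. In the set of 5 it was 1935 on NB-titled replicate 5 and 622 to 779 on the others. Stmn2 was nearly as high on another array, with a relative level of 2.17 against 2.18 on homozygous replicate 4. Wild-type replicate 1 stood apart in RNA quality, with a 3' minus 5' log2 difference of 0.70 for Gapdh, against at most 0.22 on the other 10 arrays.

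The RefSeq promoter table of build GRCm38.p6 held 6 of the 10 genes (Cnn1, Acta2, Des, Synm, Kcnmb1 and Smtn), and Actg2, Myh11, Tagln and Myocd were not matched in it. CArG boxes were searched on both strands of windows that ran 250 bases before to 50 bases after each start site. The exact box was in 0 of the 6 windows and in 1.63% of 32851 windows of the same length. After that result the search was relaxed to allow 1 base other than A or T in the core, and the relaxed box was in 2 of the 6 windows and in 9.98% of all windows. The 250 bases before the start site of Acta2 and Cnn1 are printed 5′ to 3′ because these genes stand for the vascular or shared and the visceral pair compared further on. Capitals mark relaxed CArG boxes. The stretch of Acta2 lies at chr19:34255374-34255623 on the minus strand and that of Cnn1 at chr9:22099003-22099252 on the plus strand.
Acta2: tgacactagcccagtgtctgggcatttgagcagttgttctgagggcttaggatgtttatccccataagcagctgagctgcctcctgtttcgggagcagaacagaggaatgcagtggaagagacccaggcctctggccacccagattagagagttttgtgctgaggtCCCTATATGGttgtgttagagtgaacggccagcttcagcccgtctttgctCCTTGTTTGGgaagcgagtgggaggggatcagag
Cnn1: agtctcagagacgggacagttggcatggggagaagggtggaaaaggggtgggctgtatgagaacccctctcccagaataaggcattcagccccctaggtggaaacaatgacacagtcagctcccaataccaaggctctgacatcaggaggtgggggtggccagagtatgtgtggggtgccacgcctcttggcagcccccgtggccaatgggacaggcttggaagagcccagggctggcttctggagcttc

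The boxes of Acta2 began 84 and 34 bases before its start site. Start sites here are those of the RefSeq annotation, and their places were not checked. Of all windows 0.822% held 2 or more relaxed boxes. The window of Cnn1 held none, which says only that these letters are not in this window. Synm, the other gene with a match, had 1 relaxed box that began 239 bases before its start site.

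The actin and myosin genes separated homozygous replicate 4 from every other array. Actg2 (probe set 1422340_a_at), the visceral smooth muscle actin, had relative log2 levels of -0.89, -0.95, 0.44 and 6.52 in homozygous replicates 1 to 4, of 1.30, 1.29 and 1.56 in NB-titled replicates 3 to 5, and of 1.05, 0.80, 0.75 and 0.73 in wild-type replicates 1 to 4. The first 3 homozygous arrays lay below all wild-type arrays and the fourth above them. Myh11 (1448962_at), the smooth muscle myosin heavy chain, had relative levels of 0.94, 0.17, 0.97 and 6.00 in the homozygous arrays, 1.65, 2.43 and 2.73 in the NB-titled arrays and 2.40, 1.46, 1.43 and 1.64 in the wild-type arrays, in the same order of replicates. It repeated the pattern of Actg2, with 3 homozygous arrays below the lowest wild-type array. Acta2 (1416454_s_at), smooth muscle alpha actin, varied over a narrower range, with 5.07, 5.04, 5.12 and 7.18 in the homozygous arrays, 5.50, 5.37 and 5.54 in the NB-titled arrays and 5.46, 5.26, 5.23 and 5.40 in the wild-type arrays. Its probe set was at percentile 98.8 or higher on all 11 arrays, and again 3 homozygous arrays were lowest and the fourth highest. The suffix of the Acta2 probe set marks possible cross-hybridisation with related transcripts, such as those of other actins.

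The genes of thin filament proteins also had their highest level on that array. Cnn1 (1417917_at), calponin, which binds actin and slows its cycling on myosin, had relative levels of -0.74, -1.68, -0.86 and 5.08 in the homozygous arrays, 0.39, 0.60 and 0.81 in the NB-titled arrays and 0.28, -0.55, -0.37 and -0.32 in the wild-type arrays. Here too the first 3 homozygous arrays lay below the wild-type range and the fourth above it. Tagln (1423505_at), transgelin or SM22, an actin-binding protein, had 3.42, 3.04, 3.44 and 6.57 in the homozygous arrays, 4.04, 3.81 and 4.23 in the NB-titled arrays and 3.62, 3.50, 3.63 and 3.44 in the wild-type arrays. Without homozygous replicate 4 the genotypes touched, since homozygous replicate 3 and wild-type replicate 4 had nearly the same level. Smtn (1452469_a_at), smoothelin, an actin-binding protein of contractile smooth muscle, had 0.89, 0.63, 0.58 and 2.35 in the homozygous arrays, 1.01, 0.90 and 0.90 in the NB-titled arrays and 0.61, 0.60, 0.53 and 0.68 in the wild-type arrays. Apart from homozygous replicate 4 it varied little, and homozygous replicate 1 was above the wild-type range.

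The intermediate filament genes had another order among the arrays below replicate 4. Des (1426731_at), desmin of the muscle cytoskeleton, had 0.80, 0.43, 0.40 and 3.47 in the homozygous arrays, -0.01, 0.36 and 1.09 in the NB-titled arrays and 0.39, 0.03, 0.08 and 0.91 in the wild-type arrays. Synm (1457275_at), synemin, which joins desmin filaments to other structures, had -0.96, -0.96, -1.90 and 3.30 in the homozygous arrays, -1.32, -1.10 and -0.97 in the NB-titled arrays and -1.21, -1.96, -1.90 and -1.82 in the wild-type arrays. Desmin is also a skeletal and heart muscle protein, and the summed intensity of 16 striated muscle genes varied widely in both genotypes. That sum was 13603, 3551, 711 and 16967 in homozygous replicates 1 to 4, 668, 785 and 14879 in the NB-titled arrays and 914, 1164, 1145 and 11404 in wild-type replicates 1 to 4. In each of the 3 groups the highest Des level lay on the array with the highest sum. The part of striated muscle in the levels of Des and Synm was not tested.

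Kcnmb1 and Myocd were dim outside homozygous replicate 4. Kcnmb1 (1421400_at), the beta subunit that tunes the calcium-activated potassium channel of smooth muscle, had relative levels of -3.37, -3.39, -3.32 and 1.03 in the homozygous arrays, -3.04, -2.65 and -3.16 in the NB-titled arrays and -3.27, -2.81, -3.10 and -3.10 in the wild-type arrays. It stood at percentile 64.8 on homozygous replicate 4 and between percentiles 12.4 and 25.3 on the other 10 arrays. Myocd (1425978_at), the coactivator myocardin, had -1.55, -1.13, -1.12 and 2.14 in the homozygous arrays, -1.44, -1.44 and -1.47 in the NB-titled arrays and -0.83, -0.64, -1.04 and -1.22 in the wild-type arrays. It was at percentile 80.9 on homozygous replicate 4 and at percentile 43.5 or lower on the other 10 arrays.

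**Figure D1:**
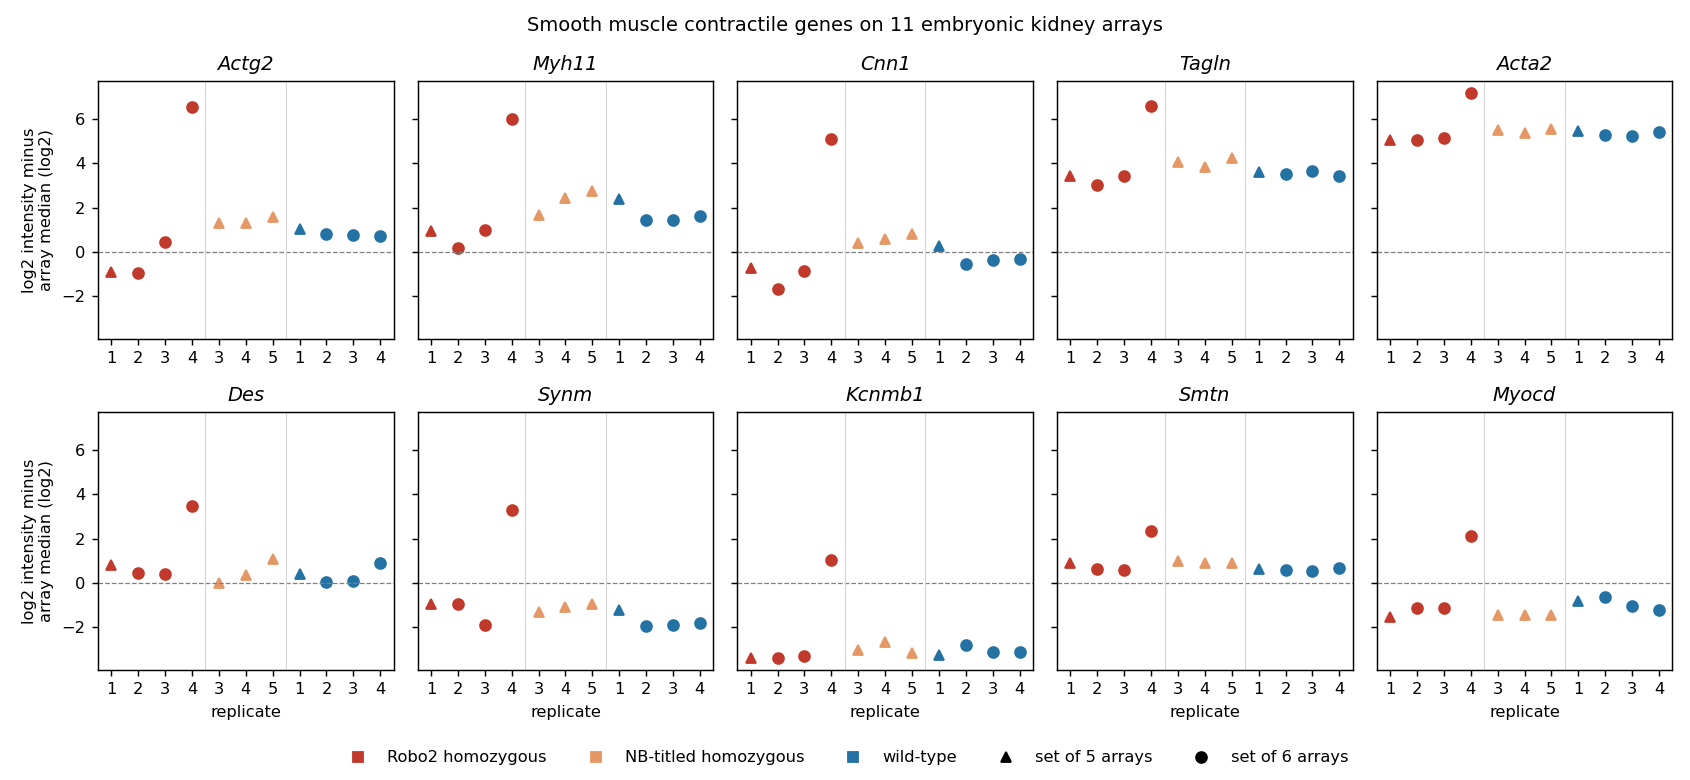
Relative level of each of the 10 genes, as log2 intensity minus the array's median over 18193 genes, with 1 point for each of the 11 arrays by group (homozygous, NB-titled homozygous, wild-type) and symbols for the set of 5 (triangles) and the set of 6 (circles). Homozygous replicate 4 is above every other array in all 10 genes, with relative levels of 1.03 (Kcnmb1) to 7.18 (Acta2).

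Homozygous replicate 4 was then set against the 5 other arrays of its set, homozygous replicates 2 and 3 and wild-type replicates 2 to 4. All 10 genes were higher on it than on any of the 5, by 1.61 to 5.67 on the log2 scale, or 3.05-fold to 50.8-fold over the highest of them, whereas 20.6% of all genes were highest on that array. The visceral actin Actg2 and the calponin gene Cnn1 had the widest gaps, and smoothelin and alpha actin the narrowest. A single array cannot be tested against the rest, so these values are a description with no p. Homozygous replicate 4 had also been singled out for its high levels beforehand.

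Actg2 had a log2 intensity of 12.76 in homozygous replicate 4 and of 6.65 ± 0.75 (SD, n = 5) on the other arrays, and it exceeded the highest of them 50.8-fold. Cnn1 had 11.32 in homozygous replicate 4 against 5.55 ± 0.57 and exceeded the highest 40.4-fold. Myh11 had 12.24 in homozygous replicate 4 against 7.44 ± 0.60, a 19.7-fold excess over the highest. These 3 genes ranked 2nd, 3rd and 6th of 18193 by that gap. Synm ranked 9th, with 9.54 in homozygous replicate 4 against 4.60 ± 0.41 and an 18.5-fold excess. Kcnmb1 ranked 10th, with 7.27 in homozygous replicate 4 against 3.16 ± 0.23. Its 13.9-fold excess rests on dim values, at percentiles 12.4 to 21.2 on the 5 other arrays, and with 16 added to every intensity it was 6.29-fold, at rank 22. With that addition 4 members stood in the top 10, namely Actg2, Cnn1, Myh11 and Synm.

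Tagln had 12.81 in homozygous replicate 4 against 9.71 ± 0.24 (SD, n = 5), a 7.12-fold excess over the highest other array. Myocd had 8.38 in homozygous replicate 4 against 5.27 ± 0.22, a 6.65-fold excess. Des had 9.71 in homozygous replicate 4 against 6.67 ± 0.35, a 5.67-fold excess. These genes ranked 29th, 33rd and 46th. Acta2 ranked 100th, with 13.42 in homozygous replicate 4 against 11.51 ± 0.15 and a 3.29-fold excess. Smtn, at rank 109, had 8.58 in homozygous replicate 4 against 6.91 ± 0.04 and a 3.05-fold excess.

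All 10 members were more than 1 log2 above the highest other array, against 1.44% of all genes (262 of 18193). Their median gap over the highest other array was 3.32, against -0.20 over all genes. On homozygous replicate 4, kidney markers were low: 13 of 13 proximal tubule genes and 7 of 8 podocyte genes had their lowest value of the 6 arrays there, against 32.3% of all genes. The summed intensity of the proximal tubule list was 1764 on that array, against 3444 to 5103 on the other 5. The 3' minus 5' log2 difference was 0.04 for Gapdh, within the range of the other arrays, and 0.34 for Actb, the lowest of the 11 arrays, next to 0.36 in wild-type replicate 4. The part of these markers in the result was not tested.

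**Figure D2:**
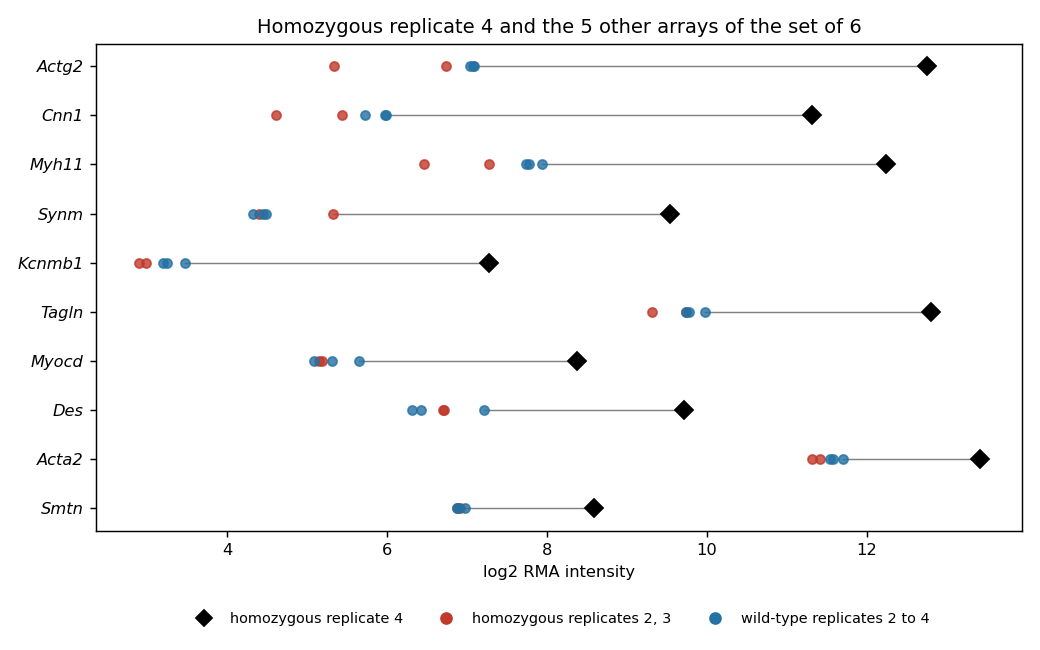
Log2 intensity of the 10 genes on the set of 6 arrays, treated here as normalized together. Genes are ordered by the gap between homozygous replicate 4 (diamonds) and the highest of the 5 other arrays (circles). These 5 are homozygous replicates 2 and 3 and wild-type replicates 2 to 4. The gap runs from 5.67 for Actg2 to 1.61 for Smtn.

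In the gap of homozygous replicate 4, other probe sets of the members mostly followed the main one. The second probe set of Synm had a gap of 3.99 and that of Myh11 1.63, and the second probe set of Myocd had 1.31. For Acta2 the other 2 had gaps of 3.15 and 0.73 at dim levels. Kcnmb1 and Des each had a dim second probe set with little or no gap, 0.19 for Kcnmb1 and -0.19 for Des. Cnn1, Actg2, Tagln and Smtn had 1 probe set each.

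The genotype comparison asked how far homozygous kidneys differed from wild-type kidneys, first over all arrays and then without homozygous replicate 4. With all 11 arrays in the model, the 10 fitted log2 differences were all above 0, between 0.27 and 1.59, and none passed the test. Without homozygous replicate 4, 7 of the 10 were below 0, led by Actg2, Myh11 and Cnn1, and again none passed. Of the genes below 0, Acta2 had the narrowest standard error.

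Over all arrays the differences, homozygous minus wild-type, were 0.45 ± 1.34 (SE) for Actg2, 0.29 ± 1.07 for Myh11 and 0.27 ± 0.40 for Acta2. They were 0.69 ± 1.22 for Cnn1, 0.57 ± 0.63 for Tagln and 0.51 ± 0.32 for Smtn. Synm had 1.59 ± 0.92, Des 0.93 ± 0.62, Kcnmb1 0.81 ± 0.83 and Myocd 0.52 ± 0.64. The standard error was larger than the difference for every gene except Smtn, Des and Synm. In limma with Benjamini-Hochberg adjustment the members had adjusted p-values of 0.943 to 0.981. The test called 0 of 10 members and 0 of 18193 genes (0%), and 875 genes, or 4.81%, had an unadjusted p under 0.05, with none of the 10 among them. The median difference of the members was 0.54, against 0.01 over all genes, and 53.3% of all genes were above 0.

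Without homozygous replicate 4 the difference of Actg2 was -1.26 ± 0.30 (SE), that of Myh11 -1.07 ± 0.28, that of Cnn1 -0.88 ± 0.19 and that of Acta2 -0.25 ± 0.07. In limma these 4 genes had unadjusted p-values of 0.00241, 0.00403, 0.00143 and 0.00932, but every member's adjusted p was between 0.971 and 0.973. Tagln had -0.24 ± 0.14, Kcnmb1 -0.26 ± 0.14 and Myocd -0.30 ± 0.13, whereas Synm had 0.42 ± 0.19, Des 0.20 ± 0.29 and Smtn 0.11 ± 0.09. The count of 4 members that were lower at an unadjusted p under 0.05 compares with 1.71% of all genes, and the 7 members below 0 compare with 44.1%. The test called 0 of 18193 genes (0%) here too, with 832 at an unadjusted p under 0.05.

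Within the set of 6 and without homozygous replicate 4, both homozygous arrays lay below all 3 wild-type arrays in 5 members, against 10.6% of all genes. These were Actg2, Myh11, Cnn1, Acta2 and Kcnmb1, and 0 members lay above, against 9.9% of all genes. The other, dimmer probe sets did not all share this direction. In the same arrays the mean difference, homozygous minus wild-type, was 0.34 for the second probe set of Kcnmb1, against -0.37 for its main one. It was -0.23 for the second probe set of Myh11, and 0.13 and -0.23 for the other 2 of Acta2. Actg2 averaged a log2 intensity of 6.04 in homozygous replicates 2 and 3 and 7.07 ± 0.03 (SD, n = 3) in wild-type kidneys. The 2 homozygous values, 5.34 and 6.73, were far apart. Homozygous replicate 2 was the lowest of the 6 arrays in 6 of the 10 members. The share of all genes lowest on that replicate was not counted, so the 6 cannot be read as particular to the members. In the other set, the difference of homozygous replicate 1 minus wild-type replicate 1 was -1.82 for Actg2, -1.35 for Myh11, -0.90 for Cnn1, 0.40 for Smtn and 0.53 for Des. In that pair 4 of 10 members were higher in the homozygous array, against 50.8% of all genes. Wild-type replicate 1 is the array that stood apart in RNA quality, and the part of this in the pair's differences was not tested. With homozygous replicate 4 included, 0 members had all homozygous arrays of that set of 6 above or below its wild-type arrays. Of all genes 5.05% lay above and 7.24% below. The genotype difference in the set of 6, with that replicate, minus that in the set of 5 was 3.03 ± 3.13 (SE) for Actg2. Over the members it ran from 0.15 for Smtn to 3.03. Since the set of 5 holds 1 array of each genotype, a lack of called members does not show that the sets agree. A difference between the sets in the genotype effect was tested as an interaction in limma, where 3 of 18193 genes (0.0165%) and 0 members passed, with member adjusted p-values of 0.807 to 0.979.

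**Figure D3:**
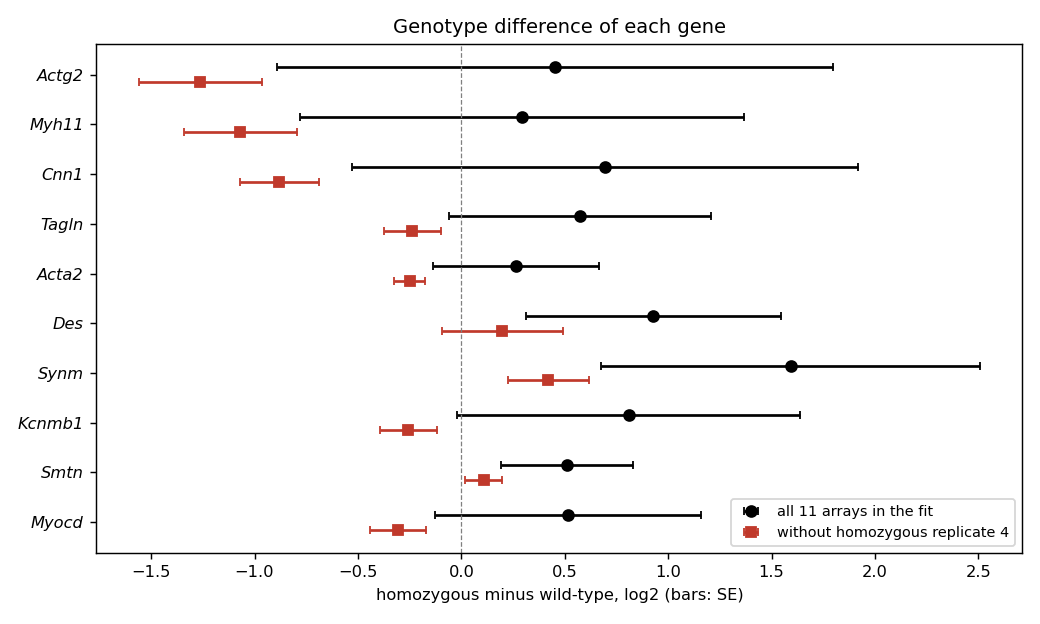
Fitted log2 difference, homozygous minus wild-type, for each of the 10 genes with its standard error from limma, with all 11 arrays and without homozygous replicate 4. With all arrays every difference is above 0 with standard errors of 0.32 to 1.34, and without that array Actg2 (-1.26), Myh11 (-1.07) and Cnn1 (-0.88) lie furthest below 0.

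The visceral pair, Actg2 and Cnn1, was compared with the vascular or shared pair, Acta2 and Tagln, by differences between arrays. The visceral pair had the larger log2 difference on homozygous replicate 4 and, with the opposite sign, in the homozygous arrays without it. On homozygous replicate 4 the visceral pair was 5.94 above the mean of the 5 other arrays and the vascular or shared pair 2.50, so that the pairs stood 3.44 apart on the log2 scale. Summed intensities are given as well, although the brightness of different probe sets cannot be read as amounts of transcript. The sum of the vascular or shared pair was 18169 on that array, against 3201 to 4192 on the 5 other arrays. That of the visceral pair was 9489, against 64.8 to 199. Which pair gained more transcript cannot be told from these sums. Acta2 was already at percentiles 98.8 to 99.3 on the 5 other arrays and at 100 on homozygous replicate 4, and the part of this position in the distance was not tested. In the genotype difference without that array the means were -1.07 and -0.24, a distance of -0.83. With all 11 arrays they were 0.57 and 0.42. The pairs hold 2 genes each and were compared without a test.

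By array, the visceral minus vascular or shared deviation from the mean of the set was -1.02, -0.84, 0.02 and 3.44 in homozygous replicates 1 to 4, where for the set of 6 the mean was taken over the 5 arrays without homozygous replicate 4. It was 0.12, 0.39 and 0.34 in the NB-titled arrays and 0.16, 0.25, 0.27 and 0.30 in the wild-type arrays. Since the set mean fixes the zero, only the order within a set can be read: homozygous replicates 2 and 3 lay below the 3 wild-type arrays of the set of 6, and homozygous replicate 1 below the other 4 arrays of the set of 5.

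**Figure D4:**
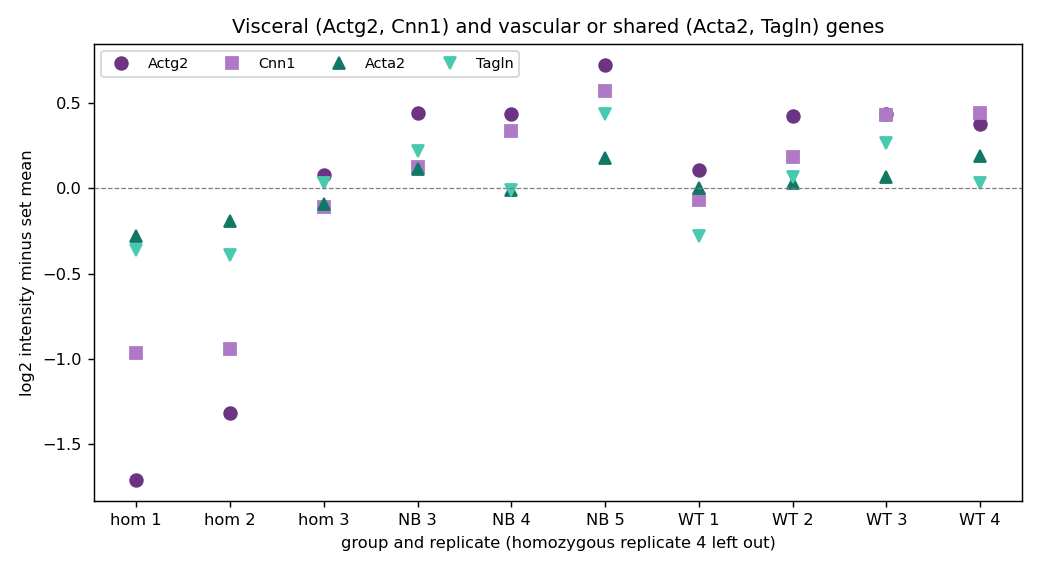
Log2 intensity minus the set mean (taken without homozygous replicate 4) for Actg2 and Cnn1 (visceral, circles and squares) and Acta2 and Tagln (vascular or shared, triangles) on the 10 arrays other than homozygous replicate 4, by group. Actg2 and Cnn1 are lowest on homozygous replicates 1 (-1.71 and -0.97) and 2 (-1.32 and -0.94), where Acta2 and Tagln lie between -0.39 and -0.19.

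The NB-titled kidneys were set against homozygous kidneys, first within the set of 5 and then in the model over all 11 arrays. Within the set of 5, Actg2 had a log2 intensity of 8.87 ± 0.17 (SD, n = 3) in the NB-titled arrays, against 6.63 in homozygous replicate 1 and 8.45 in wild-type replicate 1. Cnn1 had 8.09 ± 0.22 in the NB-titled arrays, against 6.78 in homozygous replicate 1 and 7.68 in wild-type replicate 1. The differences from homozygous replicate 1, a single array, were 2.24 for Actg2, 1.31 for Cnn1, 1.31 for Myh11, 0.58 for Tagln and 0.37 for Acta2. In the 11-array model, where homozygous replicates 2 to 4 also enter through the genotype term, the differences, NB-titled minus homozygous, were 1.11 ± 1.86 (SE) for Actg2, 0.51 ± 1.69 for Cnn1, 0.25 ± 0.88 for Tagln, 0.10 ± 0.56 for Acta2 and 0.49 ± 1.48 for Myh11. Synm had -0.81 ± 1.27, Des -0.55 ± 0.85 and Myocd -0.49 ± 0.89. Kcnmb1 and Smtn had differences of -0.00 and -0.04, so that 5 of 10 members were above 0, against 52.7% of all genes. In limma no member passed (adjusted p 0.9999 for each), 0 of 18193 genes passed (0%), and 306 had an unadjusted p under 0.05. All 3 NB-titled arrays lay above both homozygous replicate 1 and wild-type replicate 1 for Actg2, Cnn1, Tagln and Kcnmb1, 4 of 10 members against 5.33% of all genes, and below both for 0 members against 3.05%. The median over the members was 0.05 in that model, 0.38 with the 5 arrays alone, 0.44 without homozygous replicate 4 and -0.80 without homozygous replicate 1, so single arrays decide its size and sign.

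Among the 10 arrays without homozygous replicate 4, after subtracting set means, the members did not all vary together. Cnn1 followed the mean of the other 9 members most closely (Pearson r = 0.965, n = 10), ahead of Myh11 (0.912), Acta2 (0.899), Actg2 (0.859) and Tagln (0.797). Kcnmb1 had 0.547, while Myocd (0.033), Smtn (0.0067) and Des (-0.072) showed hardly any relation and Synm ran the other way (-0.586). These coefficients describe 10 arrays that fall into 2 sets, treated here as normalized apart, and 3 groups. Between single genes, Actg2 and Cnn1 had r = 0.966, and Actg2 and Synm r = -0.676.

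Without homozygous replicate 4, the 10 genes outside the set whose profile was most like the mean of the members included several of the urothelium, the lining of pelvis and ureter, out of 1472 genes with an SD of at least 0.3. Sprr1a, a cornified envelope protein, came first (r = 0.917), and the uroplakin genes Upk1b (0.882), Upk3a (0.837) and Upk2 (0.825) and the ureteral mesenchyme regulator Tbx18 (0.846) were also among them, with Sptssb, Eprn, Anxa8, Clic3 and Entpd1. Upk1b had relative levels of -1.55, -1.02, -0.45 and 2.57 in homozygous replicates 1 to 4, 0.32, 1.15 and 0.96 in the NB-titled arrays and 1.12, -0.07, 0.08 and 0.72 in wild-type replicates 1 to 4. Its order matched that of Actg2 in that homozygous replicates 1 to 3 were the lowest of their set and replicate 4 the highest. Upk1b was picked for its likeness to the members on the 10 other arrays, so its order there follows in part from that choice. The share of urothelial genes among the 1472 was not counted. With all 11 arrays, where homozygous replicate 4 sets the profile, the 10 genes were Rims1 (0.994), the tropomyosin gene Tpm2 (0.992), the leiomodin gene Lmod1 (0.991), Il6st, Clca3a2, Hspb6, Csrp1, P2rx1, Tgfb1i1 and Itpkb (0.985).

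Other contractile genes were read from a list of 33 filament, light chain and adhesion proteins, of which 32 were measured. Homozygous replicate 4 was the highest of the 6 arrays in 26 of the 32, and in 19 it was more than 1 log2 above the highest of the other 5. Over all genes it was highest in 20.6%, by more than 1 log2 in 1.44%, and lowest in 32.3%. The gap over the highest other array was 3.37 for Hspb6, a small heat shock protein of muscle, 3.32 for Lmod1, which nucleates actin filaments, 3.16 for Synpo2, an actin-bundling protein, and 2.94 for Ppp1r12b, a myosin phosphatase subunit. Without homozygous replicate 4 the list's median genotype difference was -0.06, and with it 0.26. In limma 0 of the 32 passed in either direction. Of 23 measured genes for channels and receptors of smooth muscle tone, homozygous replicate 4 was highest in 11, by more than 1 log2 in 4, and lowest in 5. Those it was highest in included P2rx1, an ATP-gated channel (gap 3.38), and Cacna1c, the L-type calcium channel (gap 2.09). Of 24 regulators of smooth muscle genes it was highest in 10 and lowest in 7, the latter near the share over all genes. The gaps were 1.65 for Klf4, a repressor of myocardin targets, and 0.69 for Srf, serum response factor. In limma 0 of the 23 and 0 of the 24 passed.

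Lists for neighbouring tissues were read in the same way. On homozygous replicate 4 the urothelial list was highest in 10 of 12 genes, by 4.30 for Krt15 and 2.47 for Krt5, keratins of basal cells. Its summed intensity was 2397 there, against 787 to 1154 on the 5 other arrays. Without that array, 0 of 12 urothelial genes had a fitted homozygous level above wild-type, whereas 44.1% of all genes were below 0. The list's median difference was -0.35, with none passing in limma. On homozygous replicate 4 the list of ureter mesenchyme was highest in 6 of 15 genes and connective tissue in 10 of 12. Striated muscle was highest there in 6 of 16, vascular wall cells in 5 of 12 and gut in 3 of 12, against 20.6% of all genes. Endothelial genes were lowest there in 8 of 10, against 32.3% of all genes. Among all non-members, in a list or not, the widest gap was that of Adamdec1, a metalloprotease (5.72). Next came Calcb, a neuropeptide (4.86), and Tnnt2, cardiac troponin T (4.53). Krt15 of the urothelial list (4.30, given above) and Rbfox3 of the brain list, a neuronal splicing factor (4.24), followed. The part of these other tissues in the members' levels was not tested.

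**Figure D5:**
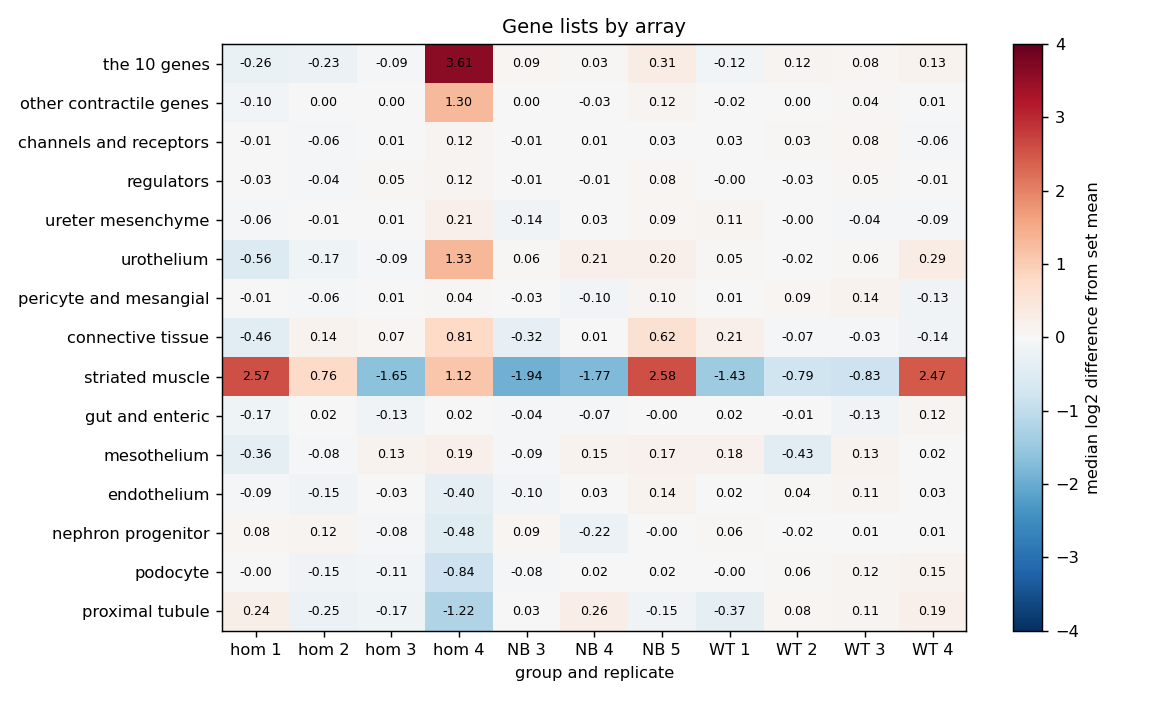
Median deviation from the set mean (taken without homozygous replicate 4), in log2 units, of each gene list on each of the 11 arrays, with the 10 members in the first row. On homozygous replicate 4 the members (3.61), the urothelium (1.33), the other contractile genes (1.30), striated muscle (1.12) and connective tissue (0.81) are high. Proximal tubule and podocyte genes are low there. Striated muscle is higher still on some other arrays, as at 2.58 on NB-titled replicate 5.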

How the data were processed

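Microarray signal was measured in 11 mouse kidney samples. The deposited values are linear intensity, and the submitters' processing notes name RMA as the tool. The sources used here do not give its version or the steps before it. All deposited intensity values were above 0, and log2 was taken with no pseudocount. The number of arrays limits the precision.

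Of 45101 probe sets, 64 were controls, 34945 had 1 gene symbol in the platform annotation, 932 had several and 9160 remained unnamed. A RefSeq table of GRCm38.p6 updated 34741 symbols by Entrez identifier. For each of 18193 genes the brightest probe set, by mean log2 value over the arrays, was kept.

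A linear model on all 11 arrays held 1 coefficient for each group plus a term with 2 levels, arrays titled R2E17 or R2NB against arrays titled E17R2, and was fitted by lmFit and eBayes of limma 3.58.1 under R 4.3.3. The 2-sided p-values were adjusted over all genes by Benjamini-Hochberg at a threshold of 0.05. The NB-titled arrays also enter the spread. The members, the gene lists and the tests were chosen with earlier results of these data known. Named were all members, up to 4 genes per list with the smallest p and up to 4 with the widest gap of homozygous replicate 4, the 10 non-members with the widest gap, the 10 most like the mean member profile, and Robo2. Replicate numbers across groups follow accession order and pair no samples. Alternatives covered normalization, probe set choice, dim genes, a pseudocount, that term and leaving out each array.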

Additional observations from a re-analysis of the deposited data

Results flagged for a closer look

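In 7 of the 10 genes, homozygous replicate 4 lay so far from the other 3 homozygous arrays that the gap to its nearest neighbour, as a share of the range over the 4 arrays, passed Dixon's 95% critical value for 4 samples. On the scale of log2 intensity minus the array median the share was 0.983 for Kcnmb1, 0.961 for Acta2, 0.885 for Tagln, 0.884 for Myocd, 0.869 for Des, 0.863 for Myh11 and 0.861 for Cnn1. In these 7 genes the array's relative level was between 1.03 (Kcnmb1) and 7.18 (Acta2). Actg2, Synm and Smtn did not pass, although homozygous replicate 4 was highest for them too, since the other 3 homozygous arrays differed more among themselves relative to the gap. The 10 genes were looked at in the homozygous and in the wild-type group, 20 groups of 4 arrays in all, and chance flags about 1 in 20 groups. No wild-type group was among the 7. The genes are not independent, since 1 array sets all 7 values. Homozygous replicate 4 had been singled out for its high levels beforehand, so these shares describe the gap seen above and are no test of it.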

How the results depend on the processing

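Leaving out homozygous replicate 4 turned the sign of 7 members. Over the fits that left out 1 array each, the log2 genotype difference ran between -1.26 and 1.36 for Actg2, -1.07 and 0.97 for Myh11, -0.88 and 1.49 for Cnn1, -0.24 and 0.99 for Tagln, -0.25 and 0.49 for Acta2, -0.26 and 1.29 for Kcnmb1, and -0.30 and 0.89 for Myocd, the lowest each time without that array. In the set of 6 alone and without it, a setting chosen after seeing the data, the differences were -1.03 for Actg2, -0.95 for Myh11, -0.87 for Cnn1, -0.30 for Tagln, -0.24 for Acta2, -0.37 for Kcnmb1, -0.014 for Smtn and -0.18 for Myocd. These 15 reversals were the only ones among 225 member fits under 23 settings, and in all of them 0 members passed. Several settings cannot change the fitted difference, such as leaving out an NB-titled array. Others repeat each other, as leaving out wild-type replicate 1 and leaving out homozygous replicate 1 do. The count of fits is therefore no measure of stability.

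Over all genes the genotype test called 1 gene with the title series as a random block (Syt13, named after its value was seen) and 0 in the other fits. The NB-titled comparison called 0 to 2 genes over the fits without 1 array, with 2 without wild-type replicate 1 and 2 without homozygous replicate 1. The interaction called 3 genes, against 0 with the mean of all probe sets, 14 with 16 added to the intensity and 5 with trend and robust settings. The median gap of homozygous replicate 4 was 3.32, against 2.52 with the mean of all probe sets and 2.73 with 16 added. The median member difference of the NB-titled comparison, 0.05, ran between -0.80 and 0.44 over the fits without 1 array. The cause of these changes was not tested. No paired analysis was possible because the replicate numbers come from accession order. Kcnmb1 is limited by its low signal outside homozygous replicate 4.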
